A study of Mus musculus with 8 samples.

Results

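The genes described here are 6 fibroblast growth factors, Fgf1, Fgf2, Fgf7, Fgf9, Fgf10 and Fgf18, and the 4 signalling receptors of the family, Fgfr1 to Fgfr4. Probes were taken by the gene name in the scanner files, which gave 19 probes for the 10 genes of the 23902 named genes on the array. All 10 genes passed the filter on dim probes and were tested among 17407 genes. The 8 arrays, 2 per group, measured total RNA of 4 populations: the unsorted lung suspension, labelled pulmonary single cells, and 3 fibroblast populations sorted out of it, labelled A-, B- and C-type. All groups came from lungs of adult female C57BL/6 mice aged 12 to 16 weeks, with no treatment or genetic change stated, and each sample held 50000 cells. The sort stained for E-Cadherin, TER119, CD45, CD31, Lyve-1 and CD146 as lineage markers, and for Thy-1, Sca-1 and Pdgfra. The combination that defines each type, and how many mice were pooled for a sample, are not given in the sources used here. The 2 samples of a population were independent preparations, per the labels. The p-values rest on the spread between such samples, pooled over the 4 populations and moderated by the spread of all genes. The spread of the pulmonary samples thus enters the tests between fibroblast types as well.

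FGFs are secreted proteins that bind heparan sulfate at the cell surface together with a receptor tyrosine kinase, and so activate the Ras and MAP kinase cascade in the receiving cell. In the lung, Fgf7 and Fgf10 come from mesenchymal cells and act on the epithelium through an isoform of Fgfr2, while Fgf9 is known from the mesothelium and epithelium of the embryonic lung and signals to mesenchyme. Fgf18 is a mesenchymal ligand of lung development, and Fgf1 and Fgf2 lack a classical secretion signal.

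Levels are given on a scaled log2 signal, which is the log2 of the scanner's processed signal minus the array's 75th percentile, so that 0 is the brightness of the probe at that percentile. The pulmonary arrays are called Pu1 and Pu2 and the fibroblast arrays A1 to C2. Values are given in that order, and levels of different probes are not compared. Differences are log2 differences with the standard error (SE) of a limma fit, called at an adjusted p under 0.05 over all genes. With 2 arrays per group, precision is limited by the number of arrays. Signal at the 75th percentile ran from 110.2 to 250.0 units and 54.6% to 68.7% of spots were well above background. Replicate arrays correlated at 0.985 in A and in B, 0.946 in C and 0.915 for Pu1 with Pu2, over genes, which are not independent replicates. All 7 fibroblast markers, Col1a1, Col1a2, Col3a1, Pdgfra, Dcn, Lum and Tcf21, were higher in each fibroblast type than in the pulmonary single cells. Pdgfra was also stained for in the sort, so it is no independent marker of these types. The pulmonary arrays were on a slide of their own and the 6 fibroblast arrays on another, so slide and group cannot be told apart in any comparison with pulmonary single cells.

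Against the pulmonary single cells, 5 of the 10 genes were called in the A type, all of them higher, where 26.9% of all genes were called (15.0% higher). In the B type 6 were called, 5 higher and 1 lower, against 29.3% of all genes (16.3% higher and 13.0% lower), and in the C type 5 were called, 4 higher and 1 lower, against 28.7% (14.9% and 13.8%). The median difference over the 10 genes was 1.1, 0.80 and 0.74 in A, B and C, beside medians of 0.12, 0.11 and 0.05 over all genes tested. The genes called were Fgf2, Fgf7, Fgf10 and Fgf18 in each of the 3 comparisons, Fgf9 in A and B, Fgfr2 in B and Fgfr3 in C. The 3 comparisons share the same pulmonary arrays. Because the pulmonary cells are a mixture, fewer cells of a type and less RNA per cell cannot be told apart in these differences.

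**Figure D1:**
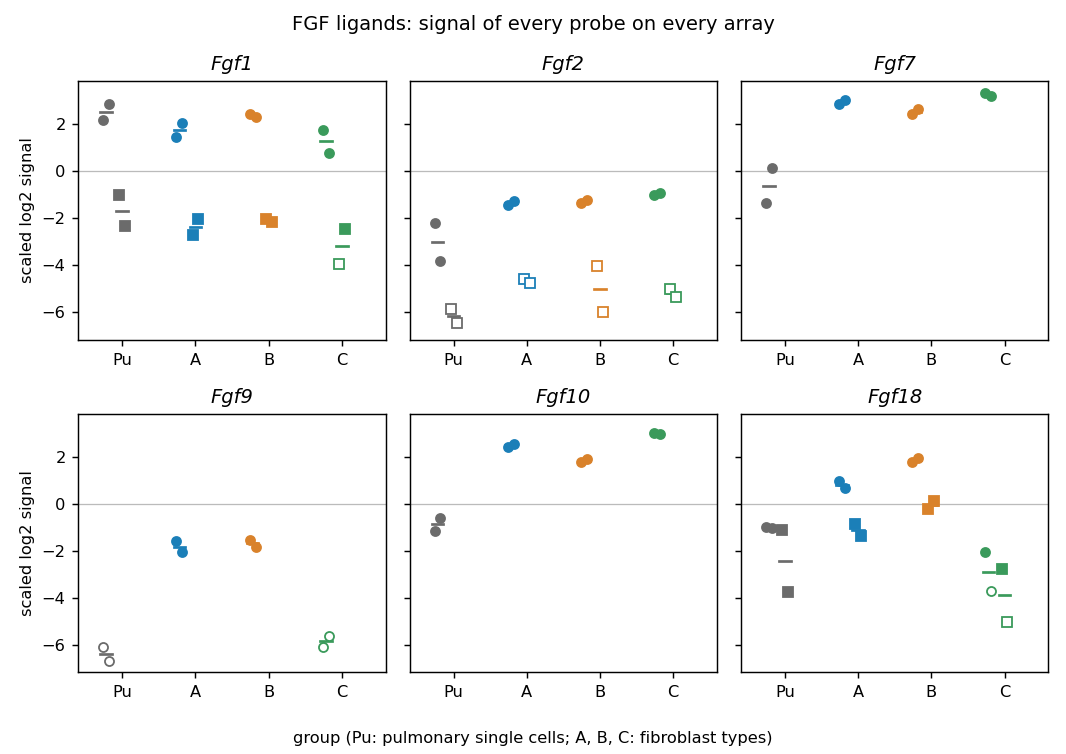
Scaled log2 signal (vertical axis) of every probe of the 6 ligands on each array, by group (horizontal axis). Circles are the brightest probe of a gene and squares the other, bars are group means, and open symbols were not well above background. Fgf7 and Fgf10 sit at 1.79 or higher on all 6 fibroblast arrays, whereas Fgf9 and Fgf18 have higher means in A and B than in the other groups.

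The ligands that act on epithelium were high in every fibroblast type. Fgf7, also called keratinocyte growth factor, read -1.36 and 0.13 in the pulmonary single cells, 2.88 and 3.05 in A, 2.42 and 2.65 in B, and 3.34 and 3.19 in C. The groups of fibroblasts lay far above the pulmonary arrays, which were themselves the most spread. Fgf7 rose by 3.58 (SE 0.48, adjusted p = 0.00194, 12.0-fold) in A, 3.15 (adjusted p = 0.00322, 8.89-fold) in B and 3.88 (adjusted p = 0.00145, 14.8-fold) in C. The size rested partly on the pulmonary arrays. Without Pu1 the differences were 2.84, 2.41 and 3.14, and without Pu2 they were 4.33, 3.90 and 4.63, and all stayed called. Among the fibroblast types the order was C, A, B, and no step in it passed the test. The interval of B minus C, for example, ran from -1.86 to 0.39. The ranges did not overlap, but with 2 arrays per group that alone shows little. In A minus B, 7 of the 10 genes did not overlap and 0 were called.

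Fgf10, the ligand that drives branching and budding of the lung epithelium, read -1.15 and -0.61 in the pulmonary single cells, 2.43 and 2.55 in A, 1.79 and 1.89 in B, and 3.02 and 2.99 in C. The probe is printed as 10 spots per array, and its SD over 2 arrays was 0.09 in A, 0.07 in B and 0.02 in C. Fgf10 rose by 3.37 (SE 0.29, adjusted p = 0.000328, 10.3-fold) in A, 2.72 (adjusted p = 0.000765, 6.59-fold) in B and 3.89 (adjusted p = 0.000235, 14.8-fold) in C. The order among the types was again C, A, B without overlap. B minus C was -1.17, with a 95% interval from -1.86 to -0.47, and was not called (adjusted p = 0.106). It was called with the 6 fibroblast arrays fitted alone (adjusted p = 0.0366) and with normexp background correction (adjusted p = 0.0295).

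The genes whose profile over the 8 arrays lay closest to these ligands, by Euclidean distance after centring each gene on its own mean, were Slc27a3 (distance 0.45 in log2, Pearson r 0.995) and Mdk (0.62, r 0.992) for Fgf7. For Fgf10 they were Stbd1 (0.41, r 0.998) and Olfml3 (0.41, r 0.996). Mdk encodes the heparin-binding growth factor midkine. These correlations describe 8 arrays in 4 groups and carry no test.

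The 250 bases before the annotated start of both genes, from RefSeq on GRCm38.p6, are shown because both genes were higher in all 3 types. That of Fgf18 is shown because its levels parted between types. Capitals mark matches to the motifs searched on both strands, which were TATAAA, the GC box GGGCGG, the forkhead motif TGTTTAC, the T-box motif AGGTGTG and the AP-1 motif TGAGTCA. No pair of matches overlapped.
Fgf7 (chr2:126034408-126034657, plus strand): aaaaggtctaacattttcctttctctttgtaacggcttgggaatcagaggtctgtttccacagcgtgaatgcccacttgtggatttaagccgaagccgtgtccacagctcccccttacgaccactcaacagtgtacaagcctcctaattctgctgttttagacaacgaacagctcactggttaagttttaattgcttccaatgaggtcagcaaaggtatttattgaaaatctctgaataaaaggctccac
Fgf10 (chr13:118714449-118714698, plus strand): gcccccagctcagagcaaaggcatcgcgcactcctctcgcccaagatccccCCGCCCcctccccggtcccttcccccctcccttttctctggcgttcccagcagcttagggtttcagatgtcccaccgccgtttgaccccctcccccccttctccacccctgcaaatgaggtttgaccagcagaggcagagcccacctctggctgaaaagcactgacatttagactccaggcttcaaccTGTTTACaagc
Fgf18 (chr11:33147401-33147650, minus strand): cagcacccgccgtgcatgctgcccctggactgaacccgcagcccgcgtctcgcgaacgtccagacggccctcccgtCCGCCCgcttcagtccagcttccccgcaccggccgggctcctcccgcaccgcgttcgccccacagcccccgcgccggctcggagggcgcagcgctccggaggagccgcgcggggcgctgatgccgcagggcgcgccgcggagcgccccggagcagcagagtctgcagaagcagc
The Fgf10 window held 1 GC box on the opposite strand, at position -199 from the start, and 1 TGTTTAC at -11. The Fgf18 window held 1 GC box at -174, also on the opposite strand, and the Fgf7 window held no match. Of 32851 mouse promoter windows of this length, 32.7% hold GGGCGG, 3.17% TGTTTAC, 12.4% TATAAA, 5.10% AGGTGTG and 4.46% TGAGTCA. G and C made up 43.6% of the bases in the Fgf7 window, 61.2% in Fgf10 and 77.2% in Fgf18, beside a median of 52.4% over all windows. The windows of Fgf7 and Fgf18, at percentiles 20.1 and 97.4 of that distribution, lie towards its opposite ends. A match is a description of the letters and no measure of binding.

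Fgf9 was well above background in A and B only. It read -6.08 and -6.68 in the pulmonary single cells, -1.60 and -2.07 in A, -1.55 and -1.83 in B, and -6.09 and -5.61 in C, and its single probe stood above background on neither pulmonary array and on neither C array. Between groups it therefore has a bound in place of a fold, which sets the bright group against the lowest signal well above background on each array of the dim group. Fgf9 was at least 4.85-fold higher in A (difference 4.55, SE 0.36, adjusted p = 0.000217) and at least 5.36-fold higher in B (4.69, adjusted p = 0.000189) than in the pulmonary single cells. On the scanner's own scale the probe was dim, with 43.4 to 60.2 units on the A and B arrays and 1.9 to 2.4 on the others. Normexp correction, which adds an offset of 50 units to every signal, reduced the differences to 0.84 (adjusted p = 0.0388) and 0.95 (adjusted p = 0.0228). The nearest profiles were those of Frmd5 (distance 1.31, r 0.981) and Aoc3 (1.41, r 0.982).

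Since Fgf9 is known from mesothelium, the 5 mesothelial markers Msln, Upk3b, Wt1, Lrrn4 and Krt19 were read beside it. All 5 were well above background on both pulmonary arrays. On every A and B array 1 of the 5 was above background, and on the C arrays 0 of 5 were. Their summed level, the log2 of the sum of linear scaled signals, was 2.92 to 3.50 in the pulmonary single cells, -2.01 to -1.71 in A, -1.97 to -0.08 in B and -2.82 to -2.67 in C. That marker was Wt1 (A1 -2.15, A2 -2.45, B1 -2.85, B2 -0.27), while Msln, Upk3b, Lrrn4 and Krt19 were not well above background on any fibroblast array. The part of mesothelial RNA in the Fgf9 values was not tested.

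Fgf18 also separated A and B from C. Its brighter probe read -0.99 and -1.03 in the pulmonary single cells, 0.97 and 0.65 in A, 1.76 and 1.96 in B, and -2.05 and -3.73 in C, where C2 was not well above background. The 4 groups did not overlap, in the order B, A, pulmonary single cells, C. Against the pulmonary single cells Fgf18 rose by 1.82 (SE 0.52, adjusted p = 0.0414) in A and by 2.87 (adjusted p = 0.00701, 7.30-fold) in B, and it fell by 1.88 in C (adjusted p = 0.0353, 3.31-fold with C2 set no lower than the lowest signal above background). The A call was lost with any pulmonary, A or B array left out (adjusted p from 0.0752 to 0.181), and the C call in 15 of 20 other fits, among them median scaling (-1.48, adjusted p = 0.0606). The C difference was -2.72 without C1 and -1.04 without C2, and the latter was not called (adjusted p = 0.0745).

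The dimmer Fgf18 probe shares 26 bases with the brighter one. It read -1.11 and -3.77, then -0.87 and -1.37, -0.22 and 0.12, and -2.77 and -5.02, which is the same order of group means. Its pulmonary and C arrays were far apart, its SE was 0.98, and none of its 6 differences was called. The profiles closest to Fgf18 were those of Prss23 (distance 1.11, r 0.983) and Lmo1 (1.27, r 0.971).

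Fgf2 was a little higher in every fibroblast type. It read -2.21 and -3.84 in the pulmonary single cells, -1.45 and -1.25 in A, -1.33 and -1.22 in B, and -1.0 and -0.92 in C. The 6 fibroblast arrays lay within 0.53 of each other and above both pulmonary arrays. Fgf2 rose by 1.67 (SE 0.51, adjusted p = 0.0488) in A, 1.75 (adjusted p = 0.0392) in B and 2.06 (adjusted p = 0.0228, 4.16-fold) in C. Pu2 set much of the size: without it the differences were 0.85, 0.93 and 1.24, and without Pu1 they were 2.48, 2.56 and 2.87. The A and B calls were lost with any of the 6 fibroblast arrays left out, with adjusted p values from 0.0539 to 0.213, and the C call when a C array was (0.0662 and 0.0789). Normexp correction reduced the differences to 0.66 (adjusted p = 0.124), 0.70 (adjusted p = 0.0983) and 0.94 (adjusted p = 0.0390). The A and B calls were lost in 12 of 21 other fits each, among them the replicate block (0.0626 and 0.0518), scaling on the percentile of detected probes only (0.0947 and 0.0815), no filter (0.0782 and 0.0641) and the 4 compared arrays alone (0.118 and 0.106), and the C call in 4 of 21.

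The Fgf2 probe, printed as 10 spots, is shown because it spans a splice junction: its ends lie 47220 bases apart on mm9, so it reads spliced RNA (chr3:37247934-37295153, plus strand).
Fgf2: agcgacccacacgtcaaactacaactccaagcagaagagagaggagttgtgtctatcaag
The other Fgf2 probe matches a separate transcript, lies inside that intron and was not well above background on any of the 8 arrays. The nearest profiles to Fgf2 were those of Copz2 (distance 0.52, r 0.991) and Zmiz1os1 (0.52, r 0.990).

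Fgf1, a ligand that binds all 4 receptors, was the only ligand with no call against the pulmonary single cells. Its brighter probe read 2.19 and 2.86 in them, 1.44 and 2.04 in A, 2.44 and 2.31 in B, and 1.75 and 0.79 in C. Pulmonary and B arrays overlapped, and both C arrays lay below both pulmonary arrays. The differences were -0.78 (95% interval -1.81 to 0.24) in A, -0.15 (-1.17 to 0.87) in B and -1.25 (SE 0.43, -2.27 to -0.23, adjusted p = 0.0703) in C. The dimmer probe gave -0.70, -0.43 and -1.53, also without a call. The C difference was called under 5 of the other settings, among them quantile normalization (-1.55, adjusted p = 0.0327), and without C1 (-1.73, adjusted p = 0.0368). The closest profiles were Mfap3 (distance 0.55, r 0.947) and Selenoh (0.60, r 0.942).

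**Figure D2:**
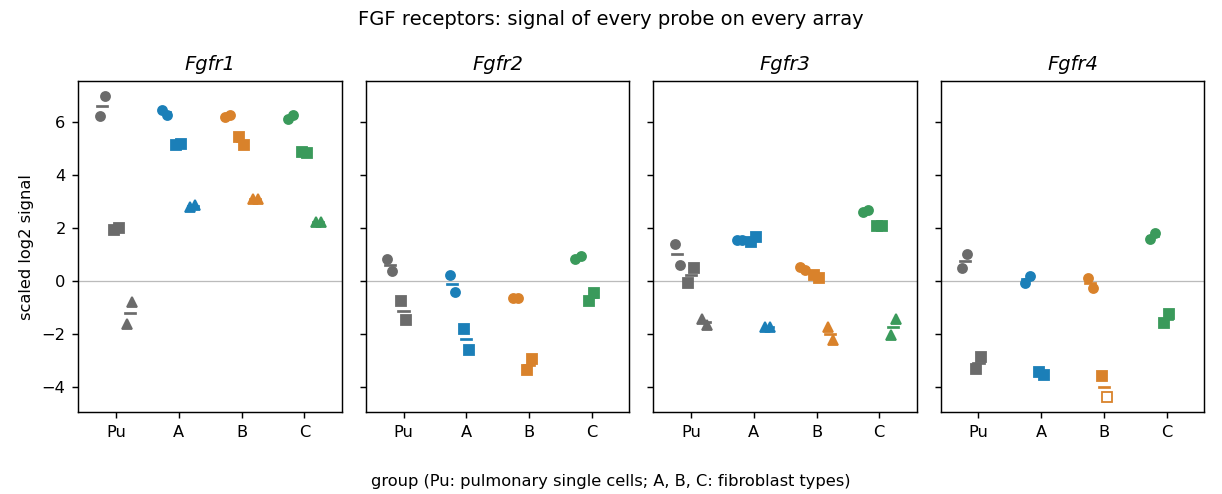
Scaled log2 signal (vertical axis) of every probe of the 4 receptors on each array, by group (horizontal axis). Circles, squares and triangles are probes 1, 2 and 3 of a gene, bars are group means and open symbols were not well above background. Fgfr1 probe 1 is level across the groups while probes 2 and 3 are lowest in the pulmonary single cells.

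Among the receptors, Fgfr1, the receptor usually associated with mesenchyme, gave different answers by probe. Probe 1, the brightest, read 6.24 and 6.98 in the pulmonary single cells, 6.46 and 6.27 in A, 6.19 and 6.26 in B, and 6.10 and 6.28 in C. It overlapped between pulmonary and fibroblast arrays, and its differences of -0.25, -0.38 and -0.42 (SE 0.33, adjusted p from 0.386 to 0.607) were not called. Probe 2 read 1.95 and 2.00, then 5.14 and 5.17, 5.42 and 5.15, and 4.86 and 4.83. Probe 3 read -1.61 and -0.77, then 2.80 and 2.88, 3.09 and 3.10, and 2.24 and 2.23. On both of these probes every fibroblast array lay above every pulmonary array, and the 3 types lay close together in the order B, A, C.

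Tested probe by probe, Fgfr1 probe 2 rose by 3.18 (SE 0.28, adjusted p = 0.000568, 9.07-fold) in A, 3.31 (adjusted p = 0.000477, 9.92-fold) in B and 2.87 (adjusted p = 0.000923, 7.32-fold) in C. Probe 3 rose by 4.03 (SE 0.35, adjusted p = 0.000564), 4.28 (adjusted p = 0.000428) and 3.42 (adjusted p = 0.00110). The 3 probes belong to the same RefSeq transcript. Probe 1 (chr8:26685820-26685879 on mm9) consists of G or T at 54 of 60 bases, with 36 T and a longest run of 6, and 0.0211% of all kept probes hold as many G and T. Probes 2 and 3 hold 29 and 21. Whether the composition of probe 1 has a part in its signal was not tested. The mean of the 3 probes rose by 2.32, 2.40 and 1.96 in A, B and C. No Fgfr1 probe was called between fibroblast types.

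The coding probes of Fgfr1, Fgfr3 and Fgfr4 are shown because their signals part between groups although the genes are related in sequence. They are Fgfr1 probe 2 (chr8:26684061-26684120), Fgfr3 probe 1 (chr5:34077856-34078090, across an intron) and Fgfr4 probe 1 (chr13:55269212-55269271), all on the plus strand of mm9. Capitals in the Fgfr3 and Fgfr4 probes mark bases equal to the Fgfr1 probe in the best ungapped alignment.
Fgfr1: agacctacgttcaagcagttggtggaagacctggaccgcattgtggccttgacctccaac
Fgfr3: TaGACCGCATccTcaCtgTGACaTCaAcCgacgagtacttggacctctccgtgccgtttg
Fgfr4: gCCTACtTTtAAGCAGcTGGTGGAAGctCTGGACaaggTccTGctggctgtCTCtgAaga
Fgfr4 equalled Fgfr1 at 35 of 58 aligned bases (60.3%), with a longest shared run of 9, and Fgfr3 at 19 of 29 (65.5%), with a longest run of 8. The place of the 3 probes in the receptor proteins was not mapped.

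Fgfr2, whose epithelial isoform binds Fgf7 and Fgf10, had its lowest mean in the B type. Its brighter probe read 0.84 and 0.39 in the pulmonary single cells, 0.24 and -0.42 in A, -0.65 and -0.63 in B, and 0.84 and 0.96 in C. Both B arrays lay below all others, and the C arrays lay at or just above the pulmonary arrays. Fgfr2 fell by 1.25 in B (SE 0.33, adjusted p = 0.0288, 2.38-fold), while A (-0.70, adjusted p = 0.162) and C (0.29, adjusted p = 0.558) were not called. The second probe, printed as 10 spots and sharing 42 bases with the first, read -0.75 and -1.46, then -1.81 and -2.58, -3.33 and -2.95, and -0.75 and -0.43. It fell by 2.04 in B (SE 0.41, adjusted p = 0.0146). The B call of the brighter probe was lost under median scaling (-0.91, adjusted p = 0.0653) and without Pu1, B1 or B2 (adjusted p 0.0712, 0.148 and 0.138). Neither probe tells the isoforms of Fgfr2 apart.

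Fgfr3 was highest in the C type on 2 of its 3 probes. Probe 1 read 1.42 and 0.60 in the pulmonary single cells, 1.55 and 1.56 in A, 0.54 and 0.43 in B, and 2.60 and 2.67 in C. Probe 2 read -0.06 and 0.50, then 1.47 and 1.65, 0.24 and 0.12, and 2.09 and 2.10. Within each fibroblast type the replicates were nearly equal, in the order C, A, B. Against the pulmonary single cells Fgfr3 rose in C by 1.62 (SE 0.34, adjusted p = 0.0120, 3.08-fold), and A (0.54, adjusted p = 0.273) and B (-0.53, adjusted p = 0.274) were not called. Probe 2 was higher in A as well (1.34, adjusted p = 0.0268) and in C by 1.87 (adjusted p = 0.00711). Probe 3, from another transcript model, lay between -2.22 and -1.41 on all arrays and was not called in any comparison. The profile closest to Fgfr3 was that of Foxf2, a transcription factor of lung mesenchyme (distance 0.21, r 0.997), followed by Egflam (0.66, r 0.963).

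Fgfr4 followed the same group order as Fgfr2. Its brighter probe read 0.48 and 1.02 in the pulmonary single cells, -0.06 and 0.21 in A, 0.13 and -0.26 in B, and 1.58 and 1.82 in C. Both C arrays lay above all others, and A and B overlapped. No difference from the pulmonary single cells was called on this probe (A -0.68, adjusted p = 0.167; B -0.82, adjusted p = 0.100; C 0.95, adjusted p = 0.0667). C was called under median scaling (1.35, adjusted p = 0.0367) and without Pu2 (1.22, adjusted p = 0.0286). Probe 2 read -3.31 and -2.85, then -3.44 and -3.53, -3.56 and -4.38, and -1.58 and -1.24, with B2 not well above background, and rose in C by 1.67 (SE 0.38, adjusted p = 0.0222). Closest to Fgfr4 were Adcy3 (distance 0.62, r 0.972) and Gsg1l (0.74, r 0.957), to Fgfr2 Sectm1a (0.56, r 0.951) and Rtl4 (0.57, r 0.948), and to Fgfr1 probe 1 Tmprss3 (0.09, r 0.993) and Igsf9 (0.11, r 0.989).

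**Figure D3:**
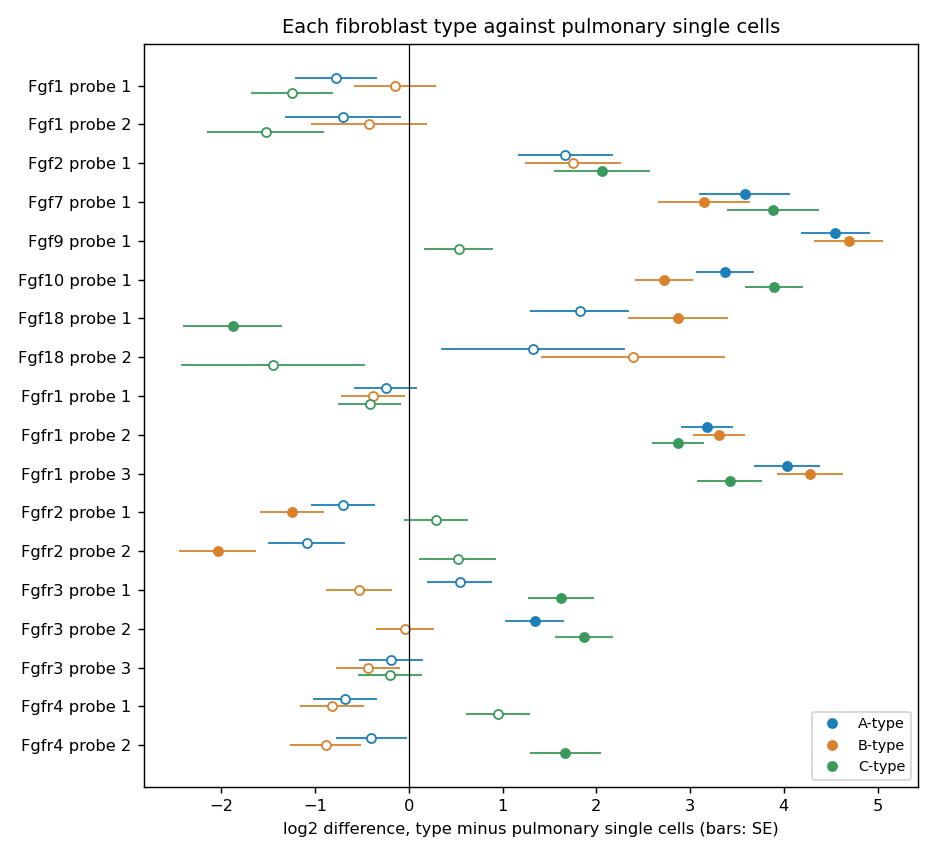
Log2 difference of each fibroblast type from the pulmonary single cells (horizontal axis) for every tested probe (vertical axis), with SE bars, from the fit of all probes one by one. Filled points had an adjusted p under 0.05. Fgf7, Fgf10 and Fgfr1 probes 2 and 3 are filled to the right in all 3 types, and Fgfr1 probe 1 lies near 0.

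Between the fibroblast types few genes were called at all. A minus B had 0 calls among the 10 genes, beside 0% of all genes, with 565 genes at an unadjusted p under 0.05 by limma. In A minus C, 2 of the 10 were called, Fgf9 and Fgf18, both higher in A, where 0.391% of all genes were called (0.276% higher). In B minus C, 4 were called, Fgf9 and Fgf18 higher in B and Fgfr3 and Fgfr4 higher in C, where 2.44% of all genes were called (1.27% higher in B and 1.17% higher in C). Fgf9 passed the filter through A and B only, and neither C array was well above background for it. These counts thus include a gene admitted by the groups where it is high. The median difference over the 10 genes was 0.14, -0.34 and -0.52 in these 3 comparisons, beside -0.01, 0.06 and 0.06 over all genes.

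Fgf9 was at least 3.45-fold higher in A than in C (difference 4.02, SE 0.36, adjusted p = 0.0266) and at least 3.81-fold higher in B than in C (4.16, adjusted p = 0.00428). A and B overlapped, with a difference of -0.14 and a 95% interval from -0.98 to 0.70. The A call was lost with the replicate block (adjusted p = 0.0517), with the 4 compared arrays alone (0.117), and without A1, A2, B1, B2 or C2 (from 0.0569 to 0.251). The B call was lost without B1 (0.0600) or B2 (0.0589). Under normexp correction neither was called (0.47, adjusted p = 0.497, and 0.57, adjusted p = 0.385).

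Fgf18 was higher in A than in C by 3.70 (SE 0.52, adjusted p = 0.0493) and in B than in C by 4.75 (adjusted p = 0.00722). With C2 set no lower than the lowest signal above background, these are 11.7-fold and 24.1-fold. Without C2 the differences were 2.86 (adjusted p = 0.0647) and 3.91 (adjusted p = 0.0188), and without C1 they were 4.54 and 5.59. The A call was lost in 14 of 21 other fits, including the 6 fibroblast arrays alone (adjusted p = 0.0547) and the replicate block (adjusted p = 0.0684). The B call was lost without B1 (0.0793), without B2 (0.0801) and with the 4 compared arrays alone (0.0717).

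Fgfr3 and Fgfr4 were called in the opposite direction, while no Fgfr1 probe was called. Fgfr3 was lower in B than in C, with B minus C at -2.15 on probe 1 (SE 0.34, adjusted p = 0.0239, 4.45-fold) and -1.91 on probe 2 (adjusted p = 0.0414). Fgfr4 was also lower in B, at -1.77 on probe 1 (SE 0.32, adjusted p = 0.0412, 3.40-fold) and -2.56 on probe 2 (adjusted p = 0.0323, 5.05-fold with B2 set no lower than the lowest signal above background). For Fgfr2 the difference of the brighter probe was -1.54 (SE 0.33, adjusted p = 0.0683) and that of the second probe -2.55 (adjusted p = 0.0398). The mean of A lay between those of B and C for Fgfr2, Fgfr3 and Fgfr4. A minus C was -1.08, -1.62 and -0.99 for Fgfr3, Fgfr4 and Fgfr2, and none of these passed the test.

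These calls were close to the threshold. The Fgfr3 call was lost without A1, A2, B1, B2 or C2 (adjusted p from 0.0759 to 0.207) and with the 4 compared arrays alone (0.0511), and the mean of its 3 probes differed by -1.44 (adjusted p = 0.0372). The Fgfr4 call was lost with every array of the 3 types left out in turn, with adjusted p from 0.0550 to 0.315, with median scaling (0.0724), quantile normalization (0.0506) and the replicate block (0.0747). With the 6 fibroblast arrays of their shared slide alone, 6 of the 10 genes were called in B minus C, with Fgf10 and Fgfr2 (adjusted p = 0.0452) added, and 1 in A minus C.

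Epithelial markers were read beside these receptors. Sftpc, Sftpb, Sftpa1, Lamp3, Abca3, Slc34a2 and Etv5, markers of alveolar type 2 cells, had a summed level of 8.05 to 8.17 in the pulmonary single cells, 3.24 to 3.28 in A, 3.37 to 3.72 in B and 3.61 to 4.29 in C. On the C arrays 6 or 7 of the 7 were well above background, against 4 or 5 on the A and B arrays. The 5 alveolar type 1 markers had summed levels of 3.91 to 4.35, 1.88 to 1.97, 1.74 to 1.80 and 2.54 to 2.76 in the same order, and the 7 airway epithelial markers 9.82 to 9.94, 2.12 to 2.61, 1.20 to 2.69 and 2.37 to 2.95. C thus stood above A and B on the type 1 list, overlapped B on the type 2 list and overlapped both on the airway list. The summed type 2 level of A lay below that of B. In A minus B, Sftpc, Slc34a2 and Sftpa1 differed by 1.07, 0.71 and 0.42. Sftpb, Lamp3, Abca3 and Etv5 differed by -0.75, -0.51, -0.19 and -0.15, and none of the 7 was called. Of these 3 lists Sftpc alone was called in B minus C (-3.58, adjusted p = 0.0338). The list medians were -1.33, -0.52 and -0.11. Slc34a2, Sftpa1 and Sftpb differed by -3.48 (adjusted p = 0.0683), -2.26 and -1.33. Lamp3, Abca3 and Etv5 differed by 0.13, 0.58 and 0.34. Of the type 1 list, Aqp5, Emp2, Rtkn2 and Ager differed by -1.52, -0.98, -0.52 and -0.29, and Hopx by 0.71. Of the airway list, Scgb1a1, Epcam, Cdh1 and Scgb3a2 differed by -1.7, -1.33, -0.41 and -0.11. Foxj1 and Krt5 differed by 0.34 and 1.38, and Cyp2f2 by 3.86 (adjusted p = 0.118). The part of epithelial RNA in the Fgfr2, Fgfr3 and Fgfr4 values was not tested.

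**Figure D4:**
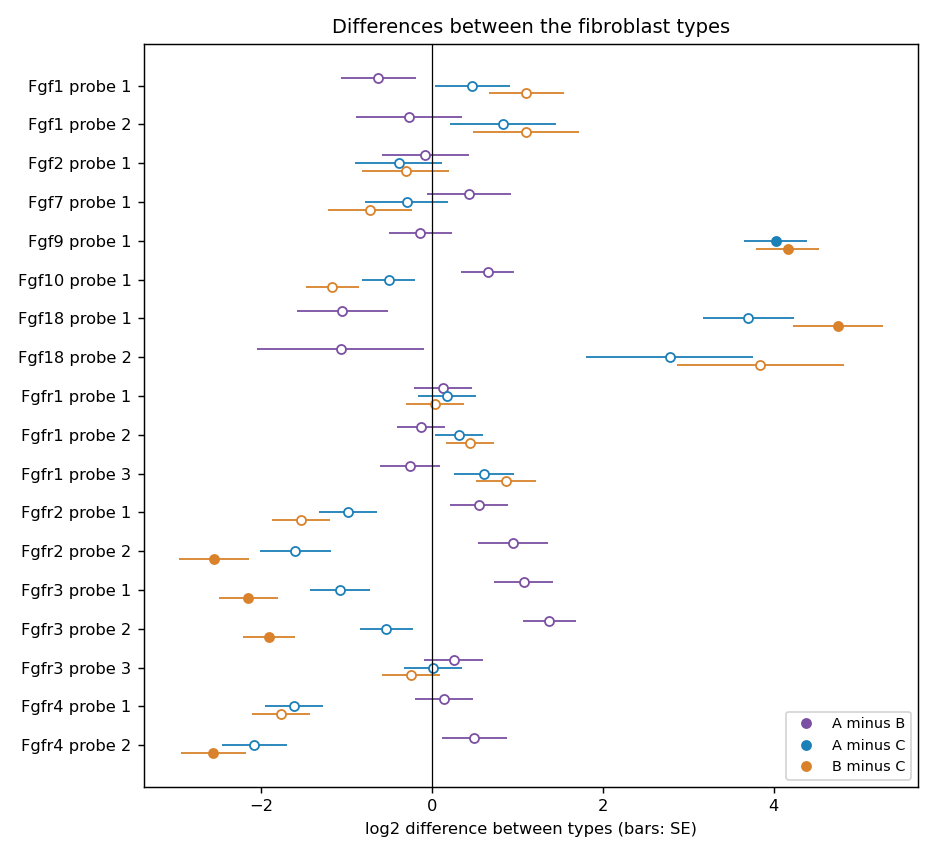
Log2 differences between fibroblast types (horizontal axis) for every tested probe (vertical axis), with SE bars, from the fit of all probes one by one. Filled points had an adjusted p under 0.05. Fgf9 and Fgf18 lie to the right in A minus C and B minus C, and Fgfr2, Fgfr3 probes 1 and 2 and Fgfr4 lie to the left in B minus C.

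Other parts of the pathway were read from lists of known genes, each set beside the share of all genes called in the same comparison, which was 15.0%, 16.3% and 14.9% higher and 11.9%, 13.0% and 13.8% lower in A, B and C. The medians over all genes were 0.12, 0.11 and 0.05. Of 16 other FGF ligands 10 were tested, with 3 higher and 0 lower in A, 3 and 0 in B, and 1 and 1 in C. That is 30.0%, 30.0% and 10.0% higher, above the share of all genes in A and B and below it in C, and the list medians were -0.09, -0.14 and -0.13. Fgf5 and Fgf14, called higher in A and B, passed the filter through A and B only. The shares in A and B thus rest in part on genes admitted by the groups where they are high. Fgf5 rose by 3.74 (adjusted p = 0.00770) in A and 3.44 (adjusted p = 0.0105) in B, which are 6.04-fold and 4.92-fold when the pulmonary array that was not above background is set to the lowest signal above it. It was not above background on either C array. Fgf14, an intracellular family member, rose by 3.02 and 3.21 in A and B (5.83-fold and 6.65-fold, likewise), and Fgf11, another, rose by 1.40, 1.44 and 1.41 in A, B and C. Fgf21 was at least 1.70-fold lower in C (adjusted p = 0.0438), where it was not above background. No member of this list was called between types, where Fgf5 differed by 3.78 in A minus C (adjusted p = 0.0789) and by 3.48 in B minus C (adjusted p = 0.0557).

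Of 10 co-receptors and binding proteins 8 were tested, and 3 (37.5%) were higher in each type, beside 15.0%, 16.3% and 14.9% of all genes. The list medians were 0.38, 0.26 and 0.58. The 3 were Flrt2, a membrane protein that binds FGF receptors, by 3.18, 3.32 and 2.44, Fgfrl1, a receptor without a kinase domain, by 2.42, 2.11 and 1.78, and Ncam1 by 1.73, 1.32 and 1.56. Cdh2 fell by 1.12 in B (adjusted p = 0.0479). Kl and Klb, the co-receptors of the endocrine FGFs, were not well above background on both arrays of any group and were not tested.

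Heparan sulfate proteoglycans hold FGFs at the cell surface and in the matrix by their chains. Of 13 core proteins, 6 were higher and 1 lower in A, 5 and 1 in B, and 8 and 1 in C. The shares higher were 46.2%, 38.5% and 61.5%, beside 15.0%, 16.3% and 14.9% of all genes, and the list medians were 0.78, 0.48 and 1.78, beside 0.12, 0.11 and 0.05. Glypican 3 (Gpc3) rose by 3.73, 3.73 and 2.73, and perlecan (Hspg2) by 2.98, 2.94 and 2.36. Glypican 6 (Gpc6) rose by 3.47, 4.10 and 1.78 and Col18a1 by 3.06, 2.37 and 2.87, each against pulmonary arrays of which 1 was above background. Both genes thus passed the filter through the fibroblast types only. Gpc1 rose by 1.86 in A and 3.22 in C. Syndecan 3 (Sdc3) went the other way and fell by 3.32, 3.73 and 3.35 in the 3 types. Glypican 1 (Gpc1) and syndecan 4 (Sdc4) were lower in B than in C, with B minus C at -2.38 (adjusted p = 0.0348) and -2.02 (adjusted p = 0.0313).

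Of 19 enzymes that build or trim heparan sulfate 17 were tested, with 3 higher and 1 lower in A, 4 and 0 in B, and 3 and 2 in C. The shares higher, 17.6%, 23.5% and 17.6%, were near those of all genes in A and C (15.0% and 14.9%) and somewhat above in B (16.3%). The shares lower were 5.88%, 0% and 11.8%, beside 11.9%, 13.0% and 13.8%. Sulf1, which removes sulfate groups from the chains, rose by 3.16, 3.69 and 2.72, and Extl3, a glycosyltransferase of chain synthesis, by 1.90, 1.77 and 1.78. Glce, which converts glucuronic to iduronic acid, rose by 1.11, 1.58 and 1.35 in A, B and C. The sulfotransferase gene Hs6st2 was not above background in A, where it was at least 2.62-fold lower (adjusted p = 0.00929). Sulf2, a relative of Sulf1, fell in C by 1.82 (adjusted p = 0.0166) and was higher in B than in C by 2.85 (adjusted p = 0.0193). Heparanase (Hpse), which cuts the chains, rose in B by 1.67 (adjusted p = 0.0446). In C it was not above background, at least 2.14-fold lower than in the pulmonary single cells (adjusted p = 0.00648) and at least 6.81-fold lower than in B (adjusted p = 0.00744).

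Of 18 feedback inhibitors and targets of FGF signalling 16 were tested, with 4 higher and 2 lower in A, 4 and 4 in B, and 7 and 2 in C. The shares higher were 25.0%, 25.0% and 43.8%, beside 15.0%, 16.3% and 14.9% of all genes. The shares lower were 12.5%, 25.0% and 12.5%, beside 11.9%, 13.0% and 13.8%, which is about the level of all genes in A and C. The list medians were 0.04, 0.24 and 0.53, beside 0.12, 0.11 and 0.05. Spry1, an inhibitor of receptor signalling, rose by 1.88, 1.53 and 2.15 in A, B and C, and the immediate early genes Egr1 and Fos rose in all 3, Egr1 by 1.86, 1.89 and 1.97 and Fos by 1.46, 1.37 and 1.31. Spry4 (1.79, adjusted p = 0.00789) and the transcription factor Etv1 (2.08, adjusted p = 0.00457) rose in C, where Spred1 (0.88) and Spred2 (1.51) were also called. In A and B, Spry4 differed by 0.07 and 0.44 and Etv1 by 0.43 and 0.56. Il17rd rose in A and B by 1.13 and 1.02.

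The phosphatase gene Dusp5 fell by 3.04 in A (adjusted p = 0.00779), was at least 10.4-fold lower in B (adjusted p = 0.00372), where it was not above background, and differed by -1.37 in C. Dusp4 was at least 2.20-fold lower in B (adjusted p = 0.0411), Etv4 fell by 1.00 in B, Etv5 fell by 1.20 in C, and Cbl fell by 1.29, 1.22 and 1.46 in A, B and C. Dusp6, a phosphatase induced by MAP kinase signalling, differed by -0.36, -0.38 and 0.47, and Spry2 by 0.02, 0.03 and 0.00. Ier3 differed by -0.46, -0.56 and 0.24. No gene of this list was called between fibroblast types. Spry4 differed by -1.73 in A minus C (adjusted p = 0.0903) and Etv1 by -1.52 in B minus C (adjusted p = 0.0754).

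Of 17 adaptors and kinases, 2 were higher and 1 lower in A, 2 and 0 in B, and 1 and 1 in C. The shares were 11.8%, 11.8% and 5.88% higher and 5.88%, 0% and 5.88% lower, each below that of all genes. Frs2, the docking protein that FGF receptors phosphorylate, rose by 1.26, 0.96 and 1.34. Ptpn11 rose by 1.5 in A and 1.52 in B. Grb2 fell by 1.47 in A and Sos2 by 0.98 in C. The list medians were 0.00, -0.01 and -0.19.

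**Figure D5:**
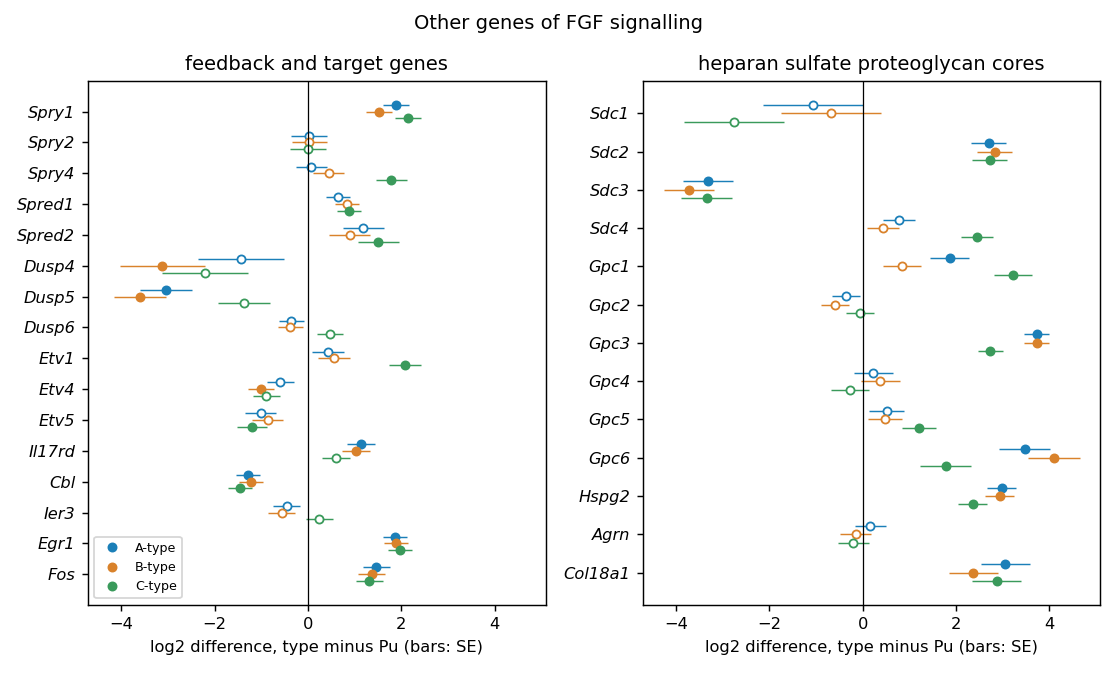
Log2 difference of each fibroblast type from the pulmonary single cells (horizontal axis) for the tested feedback and target genes (left) and heparan sulfate proteoglycan cores (right), with SE bars. Filled points had an adjusted p under 0.05. Spry1, Egr1 and Fos are filled to the right in all 3 types, and Gpc3, Gpc6, Hspg2 and Col18a1 are among the cores filled likewise.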

How the data were processed

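RNA from 4 groups of 2 samples was hybridised to 8 one-colour Agilent mouse arrays. Per the file headers, the deposited scanner files hold intensity per spot, background-subtracted with Agilent Feature Extraction 10.10.1.1, and probe positions on mm9. The authors' value table holds log2 values, which equalled the log2 processed signal minus a constant per array (within 0.02 for 100% of 55653 probes), with a median of 4.84 or 4.85 on every array. Its scale, centring and direction are thus known, and it served as an alternative.

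Spots of a probe were averaged, control spots were dropped and no value was saturated. The log2 processed signal minus each array's 75th percentile was used. A probe was kept when the scanner software called it well above background on both arrays of at least 1 group (37855 probes), and the brightest kept probe stood for its gene (17407 genes). All 8 arrays entered 1 limma 3.58.1 fit of 4 group means in R 4.3.3, with 4 residual and 3.07 prior degrees of freedom and Benjamini-Hochberg adjustment within each of 6 comparisons. The script was tested on simulated data. Member probes were also tested one by one among all kept probes. Named genes are all 10 members with every probe, for each the 2 genes of nearest profile, all feedback and target genes, and up to 4 called genes, in order of size, of each other pathway or marker list and comparison. Genes named beside these were chosen after their values were seen. The members and lists were chosen with earlier results of these data known. Promoters came from the RefSeq table of GRCm38.p6. Positions on the 2 builds were not converted. Figures were drawn with matplotlib 3.10.9.

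Alternatives were median scaling, quantile normalization, the 75th percentile taken only over probes above background on all 8 arrays, normexp correction with offset 50, the authors' table, no filter or a stricter one, the mean of a gene's probes, every probe tested, the 4 compared arrays alone, a trended robust variance, array weights, a replicate block and each array left out. The 6 fibroblast arrays alone were added after seeing the data.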

Additional observations from a re-analysis of the deposited data

Results flagged for a closer look

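Differences between 2 fibroblast types were picked out where the test of the difference itself passed, and 6 did. Fgf9 differed by 4.02 in A minus C and by 4.16 in B minus C, both as fitted values of a probe that was not above background in C. Fgf18 differed by 3.70 in A minus C and by 4.75 in B minus C. Fgfr3 differed by -2.15 and Fgfr4 by -1.77 in B minus C. No group held enough arrays for a test of single outlying arrays.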

How the results depend on the processing

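Fgf7 and Fgf10 in all types kept their direction and their call against the pulmonary single cells under each alternative run. Fgf9 in A and B did so wherever it was tested, but the stricter filter dropped it. It passed the filter through A and B only, and no pulmonary or C array was well above background for it. Its calls under the alternatives reuse those readings and are no further support. The causes of the changes below were not tested. Median scaling moved the median of all genes by 0.33, 0.35 and 0.40 in A, B and C minus pulmonary single cells (Pu), and the share of calls that were higher from 55.9%, 55.7% and 51.9% to 68.4%, 69.7% and 69.2%. The percentile taken only over probes above background on all 8 arrays moved the medians by -0.29, -0.32 and -0.31 and these shares to 41.5%, 38.8% and 36.0%. Each shift is the same for all genes of an array.

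Of the 10 genes, calls in A minus Pu fell from 5 to 3 with that percentile, with no filter, with the stricter filter (which drops Fgf9 and Fgf18) and with every probe tested. In C minus Pu they fell from 5 to 2 with the 4 compared arrays alone and to 3 with array weights. The mean of a gene's probes raised them to 7 in C minus Pu and from 6 to 7 in B minus Pu. In A minus C they fell from 2 to 1 with quantile normalization, the mean of a gene's probes, every probe tested and the 6 fibroblast arrays alone, and to 0 with no filter, the stricter filter, the 4 compared arrays alone and the replicate block. In B minus C they fell from 4 to 2 with no filter and to 1 with the 4 compared arrays alone. In A minus B array weights called 1, Fgfr3. With 1 array left out, calls ranged from 3 to 5 in A minus Pu, 3 to 7 in B minus Pu, 3 to 5 in C minus Pu, 0 to 2 in A minus C and 0 to 6 in B minus C, and were 0 in A minus B. The remaining array of such a group is assumed to vary like the other groups.

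Over all genes, A minus B had 0 calls and 22 with normexp, 4 with the trended robust variance and 238 with array weights. A minus C had 68, and 176 with normexp, 1 with no filter, 18 with every probe tested, 0 with the 4 compared arrays alone, 137 with the trended robust variance, 217 with array weights, 0 with the replicate block and 196 with the 6 fibroblast arrays alone. B minus C had 424, and 252 with no filter, 131 with the 4 compared arrays alone, 737 with array weights and 814 with the 6 fibroblast arrays alone. B minus Pu had 5108, and 3399 with array weights. C minus Pu had 5001, and 2268 with the 4 compared arrays alone and 2158 with array weights. With 1 array left out the ranges were 2154 to 6832 in A minus Pu, 2357 to 7051 in B minus Pu, 3677 to 6324 in C minus Pu, 0 to 491 in A minus C and 2 to 923 in B minus C.

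Reversals were of differences near 0, apart from Fgfr1, where the mean of the 3 probes gave 2.32, 2.40 and 1.96 in A, B and C minus Pu and -0.08 in A minus B. Under median scaling and in the authors' table Fgf1 was 0.20 in B minus Pu, and Fgfr1 was 0.08 in A minus Pu and -0.02 in B minus C (-0.07 with quantile normalization). Fgfr2 was -0.02 in C minus Pu with the percentile over probes above background. With 1 array left out, 7 differences ranged across 0: Fgf1 from -0.01 to 0.95 in A minus C and from -0.48 to 0.18 in B minus Pu, Fgfr1 from -0.62 to 0.12 in A minus Pu and from -0.06 to 0.13 in B minus C, and in A minus B Fgf2 from -0.18 to 0.02, Fgf9 from -0.38 to 0.09 and Fgfr4 from -0.05 to 0.34.

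Deviations of arrays with the same replicate number from their group means correlated at -0.084 to 0.059. These values show no large deviation shared by arrays of the same number. They cannot show whether such arrays came from a shared preparation. Why calls were lost with the replicate block was not tested. The planned slide term was not run: it cannot be separated from the pulmonary group and leaves the differences between types as they are.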
